A study of Bos taurus with 4 samples.

Results

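One array of this series set blood neutrophils of cows a week before calving directly against those collected 1 day after it, and its values are described here gene by gene. It is 1 of 4 2-channel cDNA arrays that join 4 RNA pools, taken at day -7, day 0, day 0.25 and day 1 around parturition. Per the labels, each pool combined total RNA of 4 parturient cows (Bos taurus), and on this array the day -7 pool filled channel 1 and the day 1 pool channel 2. The labels name no treatment, and they give neither the cows' breed, age or parity nor whether the same cows served both days. There is 1 pool a side and no replicate pool, so nothing below tests one day against the other, and no p-value is given.

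Neutrophils are short-lived phagocytes that leave the blood for infected tissue, where they ingest and kill bacteria, and in the udder and uterus they are the first line of cellular defence. Around calving cortisol surges. Glucocorticoids are known to release neutrophils from the marrow and to delay their death. Their movement rests on actin, their survival in part on NF-kB, and their energy mainly on glycolysis.

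The deposited value of a spot is the log10 of a ratio between the channels, and it was turned into a log2 value here. No source states which channel is the numerator, so a positive value means more signal in the day -7 pool only if the ratio is channel 1 over channel 2, and values are called positive or negative rather than higher or lower on a day. The name "day -7 over day 1" gives the channels in their order and no known direction. The ratios ran only from 0.884 to 1.20, and it is not stated whether they are ratios of intensities or of transformed intensities. Their size is therefore not a transcript's fold change. In pooled cells, fewer cells of a type and less RNA per cell cannot be told apart either.

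The array holds 3888 spots, all with a value, which form 1296 elements of 3 consecutive spots each. An element's value is the mean of its 3 spots after the array's median element was set to 0, and its error is the SD between those spots (n = 3 spots), which covers 1 array and not the spread between cows. One gene name belongs to 486 elements, which stand for 444 genes, while 9 elements have several names and 801 are unnamed here. None of 15 marker genes of neutrophils fixed for this check, among them S100A8, CSF3R and MPO, is among the named genes, so the labelled cell type could not be checked against them. Of the markers of other cells, B cells could be followed through CD79B (0.022 ± 0.018) and dividing precursors through MKI67 (0.029 ± 0.0027), whereas none of the fixed markers of monocytes, of erythroid cells and platelets, of T or NK cells or of basophils and eosinophils was measured. No intensities were analysed, and the signal over background is not known.

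An element was called when its value was at least 0.03 in size and its 3 spots lay on the same side of the array median. By this rule 308 of 1296 elements were called, 23.8% of them, with 186 positive (14.4%) and 122 negative (9.41%). Among the genes 111 of 444 were called (25%), and a gene with several elements was counted only where all of them were called the same way. The calls of genes leaned to one side, with 86 positive (19.4%) and 25 negative (5.63%). That balance depends on the centre: the median gene stood at 0.0075, above the array median, and with the median named element set to 0 the calls became 51 positive and 46 negative. The middle 90% of elements lay between -0.041 and 0.052, and only 19 called elements reached 0.1 in size, 5 positive and 14 negative. Among named genes RANGAP1, HCFC1 and HSD17B4 did so.

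The spots of an element were close to one another. Their SD had a median of 0.0087, against an SD of 0.032 between elements. In 901 elements (69.5%) all 3 spots lay on the same side of the median. On the other 3 arrays that share was 46.5% to 49.1%. The correlation between the first, second and last spots over elements was 0.563 to 0.594 here and 0.237 to 0.356 on the other arrays, given as a description without a test. The median spot SD on those arrays was 0.0089 to 0.024, and their SD between elements 0.015 to 0.046. Both lowest values belong to the array of day 0 over day 0.25, whose spots were thus about as close as here. The share and the correlation also depend on the spread between elements, so they do not show closer spots on this array. Here that spread includes the trend along the element order and elements 26 to 50, described below. Agreement failed for some large values: 38 of the 346 elements past 0.03 had spots on both sides. GRSF1, which binds RNA in mitochondrial granules, is such a case, with spots at 0.20, -0.0012 and 0.0088 and a mean of 0.069 that was not called.

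RANGAP1, which switches off RAN, the small GTPase that drives nuclear import, had the largest value of any named gene. Its spots read 0.13, 0.14 and 0.16, with a mean of 0.14 ± 0.014. All 3 stood far from the array median and close together. HCFC1, a co-regulator that brings chromatin-modifying enzymes to promoters, followed with spots at 0.13, 0.13 and 0.11 (mean 0.12 ± 0.013). HSD17B4, the peroxisomal multifunctional enzyme of fatty acid breakdown, had nearly the same mean of 0.12, but its spots read 0.20, 0.0014 and 0.16 (SD 0.11). One of its spots thus stood at the array median, and its value is the least certain of the 3.

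The other positive genes at this end are spread over many functions. METTL5, a methyltransferase of ribosomal RNA, had spots at 0.072, 0.13 and 0.053 (mean 0.084 ± 0.039). ADRM1, through which the proteasome receives ubiquitinated proteins, had 0.086, 0.057 and 0.065 (mean 0.070 ± 0.015). GCDH, an acyl-CoA dehydrogenase of lysine breakdown, had 0.063, 0.057 and 0.083 (mean 0.068 ± 0.014). Each of these 9 readings lay on the positive side beyond 0.03. VDAC3, a channel of the outer mitochondrial membrane, stood at 0.065 ± 0.0069, and ACP5, the tartrate-resistant acid phosphatase of macrophages and osteoclasts, at 0.059 ± 0.0035. CERS4, which makes ceramides, stood at 0.060 ± 0.0067. These last 3 had spots within a narrow band, whereas PACSIN2, which bends membranes in endocytosis, had spots from 0.018 to 0.11 (mean 0.063), and the myotubularin-related SBF1 from 0.030 to 0.10 (mean 0.062). RGMB, a co-receptor for bone morphogenetic proteins, stood at 0.062 ± 0.020.

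NFKB1, whose product is processed to the p50 subunit of NF-kB, had the lowest value of any named gene. Its spots read -0.044, -0.13 and -0.11, with a mean of -0.093 ± 0.045, so all 3 were negative but unequal. NDUFAF3, needed to assemble respiratory complex I, came next and was tighter, with spots at -0.056, -0.062 and -0.066 (mean -0.061 ± 0.0050). LAPTM5, a lysosomal membrane protein of blood cells, had -0.064, -0.064 and -0.035 (mean -0.055 ± 0.017). MIDN, which delivers nuclear proteins to the proteasome, had -0.047, -0.064 and -0.036 (mean -0.049 ± 0.014). The negative end was shallower than the positive one: PRRC2A stood at -0.049 ± 0.033, GAPDH at -0.048 ± 0.013, the RNA-binding HNRNPDL at -0.047 ± 0.0057, the endocytic adaptor EPS15L1 at -0.046 ± 0.019 and DAZAP2 at -0.045 ± 0.0044. FIBP, which binds acidic fibroblast growth factor, stood at -0.042 ± 0.0054, the nucleolar NOP53 at -0.040 ± 0.0081, the translocon-associated TRAM1 at -0.040 ± 0.011, the splicing regulator TRA2A at -0.039 ± 0.016 and TMEM229B at -0.039 ± 0.017. MRPL41 of the mitochondrial ribosome had a mean of -0.043, but 1 of its 2 elements fell short of 0.03 (-0.028) and it was not counted as called.

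**Figure D1:**
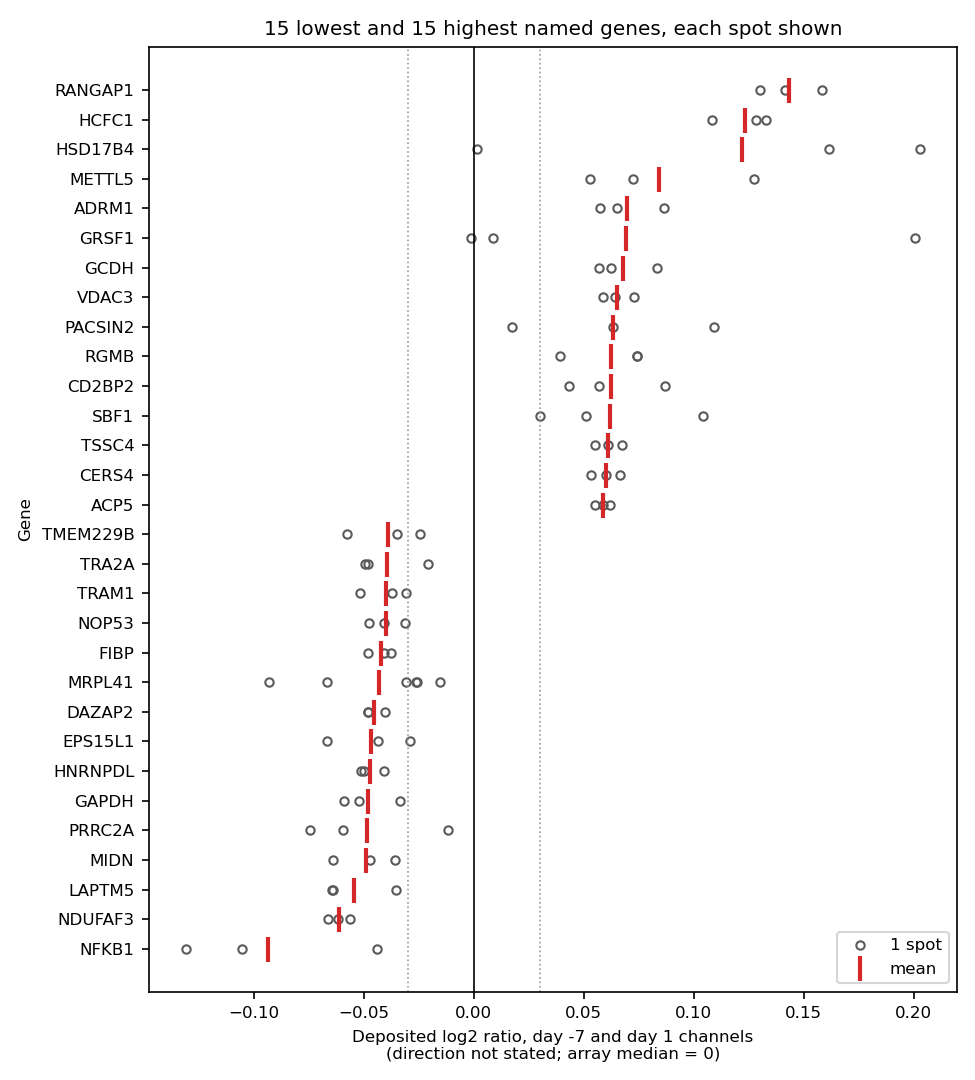
Deposited log2 ratio between the day -7 and day 1 channels (direction not stated, array median at 0) of the 15 lowest and 15 highest named genes, with each spot as an open circle, the mean as a red bar and dotted lines at the call size of 0.03. RANGAP1 and HCFC1 have 3 spots close together above 0.1, while HSD17B4 and GRSF1 each owe their mean to spots far apart.

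Genes were then grouped by function. The 28 lists together covered 146 of the named genes, of which 44 were called. Only 21 of the lists held a named gene, and 17 lists reached 3 or more genes. The lists of glucocorticoid response, interferon response and granule proteins held none, so these functions could not be followed here. The counts below are read against the shares over all genes, 19.4% positive and 5.63% negative, and medians against 0.0075.

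Genes of fatty acid and acyl-CoA metabolism had 5 positive calls among 9, with none negative and a median of 0.036. Of these HSD17B4, GCDH and CERS4 are described above. PEX16, which builds the peroxisomal membrane, had spots at 0.047, 0.053 and 0.047 (mean 0.049 ± 0.0033). CPT2, the inner-membrane partner of the carnitine shuttle, was called at 0.036, although its spots read 0.019, 0.0020 and 0.086. The members therefore belong to peroxisomes, mitochondria and ceramide synthesis rather than to 1 pathway. The rate-setting shuttle enzyme CPT1A stood at 0.027 ± 0.025 and was not called, and the lipid-making SCD (-0.0014), DGAT1 (-0.011) and ACSL4 (-0.028) lay below the median, also without a call. With the local trend along the element order removed, or with the median named element at 0, GCDH, CERS4 and PEX16 were called positive and ACSL4 negative.

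Mitochondrial respiration and transport split between the ends. Of its 6 members VDAC3 was positive, as were SLC25A25, a calcium-regulated carrier of adenine nucleotides (spots 0.041, 0.077 and 0.035, mean 0.051), and NDUFS7, an iron-sulfur subunit of complex I (0.046, 0.039 and 0.035, mean 0.040). NDUFAF3 and the uncoupling protein UCP2 (spots -0.038, -0.036 and -0.031, mean -0.035) were negative. A complex I subunit and a complex I assembly factor thus lay on opposite sides, each with 3 spots of its own sign. TOMM22, an import receptor, stood at 0.0020 and was not called. Only VDAC3 and NDUFAF3 of these 6 were called with the local trend removed.

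Glycolysis had 1 call among 5 genes, GAPDH. The spots of GAPDH read -0.059, -0.034 and -0.052. The pyruvate kinase PKM stood at -0.022 ± 0.0035, and HK3, the hexokinase of myeloid cells, had elements at -0.029 and 0.0016. The phosphofructokinase PFKL (0.0049) and the phosphoglycerate kinase PGK1 (0.017 ± 0.0043) lay on the other side of the array median, and none of these 4 was called. GAPDH and PGK1, along with the ribosomal RPL13A (elements at 0.060 and 0.023), are also used as reference genes, so the 3 reference genes on this array did not share a sign.

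NFKB1 and RELA, which pair as p50 and p65 in the commonest NF-kB dimer, lay on opposite sides. RELA had spots at 0.040, 0.019 and 0.041 (mean 0.033 ± 0.012) and was called positive, and it was no longer called with the median named element at 0 or with the local trend removed. The inhibitor NFKBIE stood at 0.026 ± 0.0074, the adaptor TRAF1 at 0.017 ± 0.0014 and the apoptosis inhibitor BIRC3 at 0.012 ± 0.0032. MALT1 (0.0013), IRAK4 (-0.0067) and LITAF (-0.0088), which act in receptor signalling to NF-kB or in endosomes, were close to the median. NFKB1 and RELA were thus the 2 calls among 8 genes. No cell death gene was called: the 4 measured were BIRC3, the inflammatory caspase CASP4 (0.013 ± 0.0041), the stress-induced phosphatase subunit PPP1R15A (0.020 ± 0.0050) and SIVA1 (0.0043), whose spots at -0.022, 0.057 and -0.022 did not agree.

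Genes of immune recognition fall in small lists, and their calls are read against the 25% called over all genes. BOLA-DRA, the alpha chain of the class II molecule DR, had spots at 0.048, 0.045 and 0.034 (mean 0.042 ± 0.0077) and was called positive. The peptide exchange factor that loads class II molecules is made of BOLA-DMA and BOLA-DMB, which stood at 0.0064 ± 0.0064 and -0.024 ± 0.0044 without a call. None of 5 leukocyte surface genes was called by the rule, from the tetraspanin CD81 (-0.024 ± 0.016) to the SLAM-family receptor CD84 (0.017 ± 0.0026), with the integrin ITGAL, the alpha chain of LFA-1, at 0.0038 ± 0.020, SEMA4B at 0.0094 and CD37 at 0.012. With the median named element at 0, BOLA-DMB and CD81 were both called negative (-0.032 each), and without the second spot the leukocyte surface list had 1 negative call. Among 10 receptors for cytokines, growth factors and innate signals, a list collected after the values had been seen, TGFBR2 of the transforming growth factor beta receptor (0.037 ± 0.0065) and CD300H (0.041 ± 0.0014) were positive, while TREM1, an amplifier of neutrophil activation (-0.015 ± 0.010), IL1R1 (0.0023) and IFNGR2 (-0.0032) were not called. With the local trend removed neither TGFBR2 (0.019) nor CD300H (0.022) was called and TREM1 was called negative (-0.033), and with the median named element at 0 CD300H was the 1 call.

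Actin and motility genes held no call, yet 9 of 10 lay below the array median, against 171 of 444 genes. Their median was -0.016. The filament-binding COTL1 stood at -0.025 ± 0.0021, the non-muscle myosin MYH9 at -0.023 ± 0.0025, the small GTPase RAC1 at -0.019 ± 0.0086 and the tropomyosin TPM3 at -0.019 ± 0.013. ARHGDIA stood at -0.018 ± 0.011, and CDC42, WASF2, HCLS1 and WIPF1 between -0.014 and -0.0058. Moesin, encoded by MSN and linking actin to the membrane, was the exception at 0.022 ± 0.0091. These values were small and close to each other: COTL1 and MYH9 were called negative with the median named element at 0, and MYH9 and RAC1 with the local trend removed. The tubulin-folding cofactor TBCA was called positive at 0.037 ± 0.020, beside the microtubule-associated kinase MAST3 at 0.028 ± 0.018 without a call. TBCA was not called with the local trend removed (0.019), with the median named element at 0 (0.029) or with the median of its spots (0.026).

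The nuclear transport and envelope list had 4 of 7 members called positive and none negative, with a median of 0.033. Apart from RANGAP1 these were SUN2 of the complex that couples the nucleus to the cytoskeleton (elements at 0.035 and 0.031), the lamina-associated TMPO (0.034 ± 0.0087) and NARF, which binds prelamin A (0.033 ± 0.0073). The last 3 lay just past the call size, and RANGAP1 alone was called with the local trend removed or with the median named element at 0. NUP214 of the pore (0.013, spots -0.0081, -0.018 and 0.065), TOR1B (0.011) and the import receptor TNPO2 (-0.0048) were not called.

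RNA-processing genes went both ways. Of 12 splicing and RNA-binding genes 3 were called positive and 2 negative, with a median of 0.0082. That median was -0.0060 with the local trend removed, and there as with the median named element at 0 the list had 2 positive and 2 negative calls. CD2BP2 (spots 0.057, 0.043 and 0.087, mean 0.062) and TSSC4 (0.055, 0.061 and 0.067, mean 0.061) both belong to the U5 particle or its assembly, and both stayed called with the local trend removed. SRSF7, a serine- and arginine-rich splicing factor, owed its 0.039 to 1 spot at 0.10 beside 0.0014 and 0.017, and it lost its call under both of the other settings. HNRNPDL (-0.051, -0.041 and -0.050) and TRA2A (-0.050, -0.048 and -0.021) were negative. Of 10 genes of ribosome and translation METTL5 was positive and NOP53 negative, while RPL13A (0.042) had 1 of its 2 elements called. The ribosomal proteins RPLP1 (0.030 ± 0.0024), RPSA (-0.027 ± 0.0042) and RPL28 (-0.0045) and the scaffold RACK1 (0.027 ± 0.0032) were not called. NOP53 lost its call with the local trend removed (-0.019), and RPSA was called negative there (-0.036) and with the median named element at 0 (-0.035).

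Of 17 genes for kinases, phosphatases and their partners, 5 were called positive and 1 negative. The scaffold subunit PPP2R1A of protein phosphatase 2A had spots at 0.054, 0.062 and 0.054 (mean 0.056 ± 0.0047), while its catalytic partner PPP2CA stood at 0.025 ± 0.0023 and was not called. Both subunits were called with the local trend removed, PPP2R1A and PPP2CA at 0.043 each. The pseudokinase PTK7 had spots at 0.031, 0.087 and 0.031 (mean 0.050). The tyrosine phosphatase PTPN2 (0.033 ± 0.014), the stress kinases MAP4K2 (0.032 ± 0.012) and TAOK2 (0.030 ± 0.0023) were just past the call size. The negative one was MAP2K7, the kinase that activates JNK, with spots at -0.031, -0.031 and -0.035 (mean -0.032 ± 0.0028). MAP4K2 and TAOK2, which act upstream of JNK, had the opposite sign to MAP2K7, all at sizes near 0.03. MAP4K2 and TAOK2 were not called with the local trend removed (0.011 and 0.012) or with the median named element at 0, while MAP2K7 was called in both (-0.039 and -0.040). PTPN2 also lost its call in both settings, at 0.025 in each. With the local trend removed 3 of the 17 were called positive and 2 negative, and with the median named element at 0 there were 2 positive and 1 negative.

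Protein degradation and membrane traffic also had calls at both ends. ADRM1 and MIDN, one positive and one negative, were the 2 called genes among 12 of the ubiquitin and proteasome list, and 9 of the 12 lay below 0, among them the proteasome subunit PSMD13 at -0.021 ± 0.0096. The ubiquitin ligase RNF149 was called negative as well with the local trend removed (-0.039). In the secretory list COG4 of the Golgi tethering complex was positive with spots at 0.049, 0.053 and 0.054 (mean 0.052), as was the tethering subunit TRAPPC1 (0.044, 0.046 and 0.040, mean 0.043), while TRAM1 was negative. COG1, a partner of COG4 in the same complex, stood at 0.0066 ± 0.0073. The syntaxin STX7 and the small GTPase ARF3 stood at -0.030 and -0.023 without a call, and both were called negative with the local trend removed or with the median named element at 0. In the endosome and lysosome list the lysosomal mannosidase MAN2B1 (0.036 ± 0.0045), the sorting protein CHMP2A (0.033 ± 0.018) and the proton pump subunit ATP6V0D1 (0.032 ± 0.0040) were positive and LAPTM5 and EPS15L1 negative, so 5 of 8 were called. With the median named element at 0 only the 2 negative ones were, and with the local trend removed MAN2B1 joined them. Another pump subunit, ATP6V1A, stood at -0.0064 ± 0.011.

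Among 19 genes of transcription and chromatin HCFC1 was positive and NFKB1 and HMGB2, a chromatin protein that bends DNA (-0.031 ± 0.0088), were negative. Below 0 and not called were BRD2 (-0.025 ± 0.019), RUNX3 (-0.023 ± 0.011) and the immediate-early factor JUN (-0.023 ± 0.0080). With the median named element at 0 BRD2, RUNX3 and JUN were called as well, which made 5 negative calls. With the local trend removed RUNX3 (-0.044) was called and HMGB2 (-0.025) was not, and the list had 3 negative calls. In a list of 9 proteins of the endoplasmic reticulum collected after the values had been seen, TMX2 (0.045 ± 0.0071), EMC7 (0.044 ± 0.0010), DERL3 (0.040 ± 0.0066) and ERLIN1 (0.031 ± 0.011) were positive and none was negative, while the stress-induced HERPUD1 stood at -0.0099 ± 0.016. EMC7 and DERL3 stayed called with the local trend removed, and TMX2 (0.029) and ERLIN1 (0.015) did not. In another, FAAP24 (0.051 ± 0.024) and FAAP20 (0.054 ± 0.037), both proteins of the Fanconi anaemia pathway of DNA repair, were the 2 called genes of 9. With the local trend removed that list had 3 positive and 2 negative calls, as GTSE1 became positive (0.032) and BTG3 (-0.033) and TOP1 (-0.044) negative, and with the median named element at 0 TOP1 was called negative beside the 2 positive genes.

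**Figure D2:**
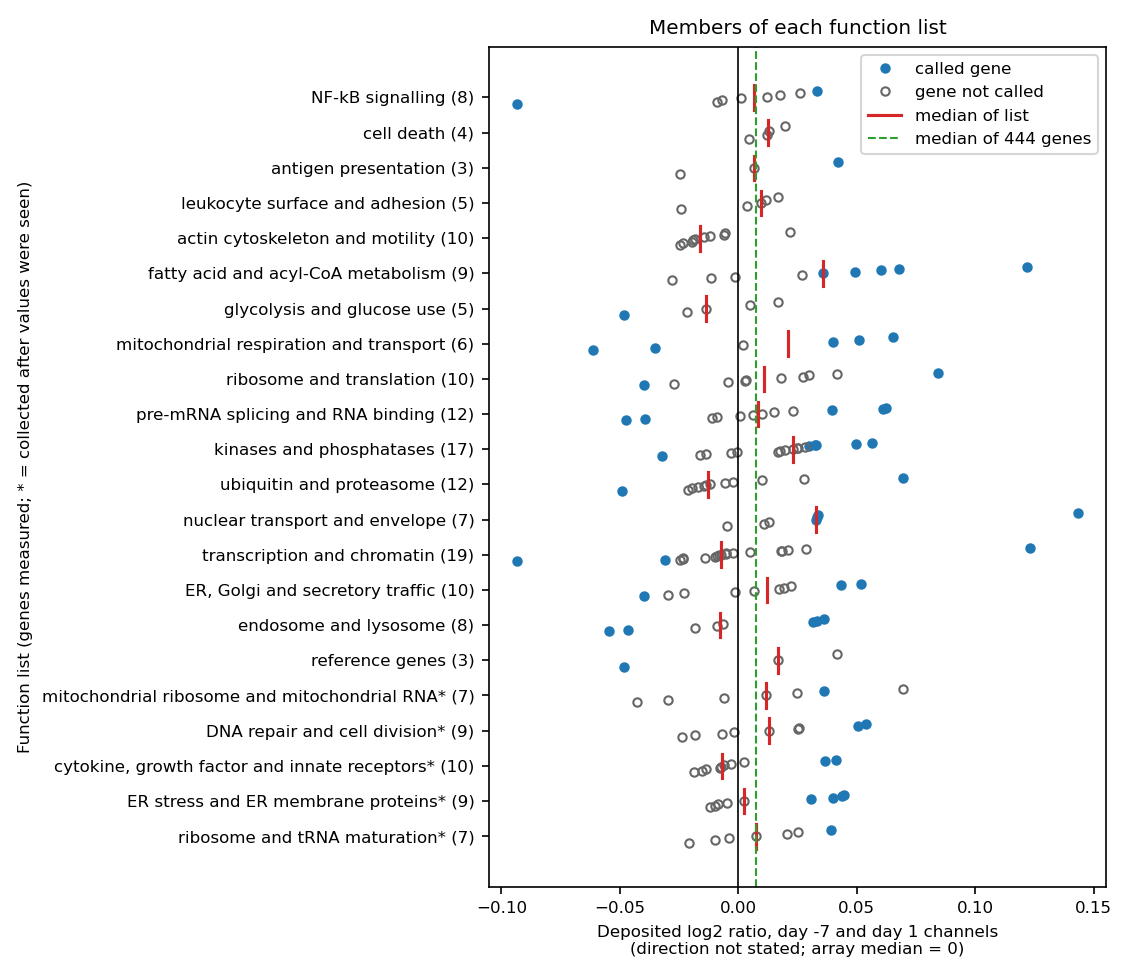
Deposited log2 ratio between the day -7 and day 1 channels (direction not stated, array median at 0) for each member of the lists with at least 3 named genes, filled where called, with the list's median as a red bar and the median of all 444 genes as a dashed line. Genes of fatty acid metabolism and of the nuclear envelope reach to the right, while 9 of 10 actin genes lie left of 0 without a call.

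Genes with more than 1 element gave a second measure of error, since their elements are different spots for the same gene. There are 32 such genes with 74 elements. The SD between elements of a gene was 0.019, against 0.027 over all named elements, and 2 elements of a gene differed by a median of 0.017. For 21 of the 32 genes all elements lay on 1 side of 0. Both elements of DCUN1D5, a cofactor of cullin neddylation, were called positive (0.037 and 0.039), as were both of SUN2. The histone demethylase KDM5C was called in both directions, with spots at -0.027, -0.034 and -0.045 on 1 element and 0.020, 0.066 and 0.0057 on the other, and the gap of 0.066 was the widest of 59 pairs. PTPRCAP, which associates with the phosphatase CD45, has 6 elements, and these ran from -0.029 to 0.019 with a mean of -0.00043. For GIMAP1, a GTPase of lymphocytes, 2 of 4 elements were called positive (0.042 and 0.033), and the others stood at -0.0060 and -0.017. The median gap of 0.017 between elements of a gene was larger than the median SD of 0.0087 between the spots of an element. Neither DCUN1D5 nor SUN2 stayed called with the local trend removed or with the median named element at 0.

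The values also followed the order of the elements in the spot list. A running median over 27 elements ranged from -0.092 to 0.031 on this array, against -0.040 to 0.050 on day 0.25 over day -7. The ranges were narrower on the other arrays, -0.018 to 0.012 on day 1 over day 0 and, on the array of day 0 over day 0.25, -0.017 to 0.0097. It accounted for 32.0% of the variance of the elements, against 11.2% to 15.3% on the others. That share and the correlations that follow are over the whole list. They include the unnamed elements 26 to 50, where the lowest running median of -0.092 lies. How much of them is owed to these elements was not worked out. Neighbouring elements correlated at 0.378 (others 0.158 to 0.221), elements 13 places apart at 0.212 and elements 54 places apart at 0.019. Named elements all lie between numbers 169 and 877, where 142 of 709 elements were called positive and 37 (5.22%) negative. After number 877 the shares were 4.53% and 14.1%, and the median was -0.012. The 709 elements include the 486 with 1 gene name. The share there thus does not show whether the elements between the named ones had the same positive lean. With the running median removed 47 genes were called positive and 43 negative, and 43 of the 86 positive and 18 of the 25 negative calls were kept.

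Some of the largest values stood close together in that order. HCFC1 is element 866, RANGAP1 is 870, SRSF7 is 873 and METTL5 is 874, and the unnamed element 868 between them had spots at 0.10, 0.12 and 0.079 (mean 0.10). Of the 9 elements from HCFC1 to METTL5, 7 were called positive and none negative. Among all 709 elements from number 169 to 877, 142 were called positive. The window was set after the values were seen. Its ends and RANGAP1 were calls by that choice, so the count does not test whether calls cluster. CREG1 at 869 (-0.014 ± 0.0016) and RBMX2 at 872 (0.016 ± 0.0038) lie between HCFC1 and METTL5 without a call. HCFC1 and RANGAP1 exceeded the running median there (0.023 and 0.022) by 0.10 and 0.12. That median is taken over 27 elements and cannot follow a cluster of 9. Whether position has a part in their values was not tested.

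A run of low values at elements 26 to 50, singled out after its values were seen, holds 11 of the 14 negative calls past 0.1. None of these elements has a gene name here. All 25 lay below 0 and 21 were called negative. Their median was -0.097, while the 10 elements before them had a median of -0.018 and the 10 after them 0.021. Element 40 was the lowest, with spots at -0.14, -0.13 and -0.16 (mean -0.15), and elements 27, 46 and 47 stood at -0.14 each. On day 0.25 over day -7, which carries the day -7 pool in the other channel, the same run had a median of 0.072 and element 40 a value of 0.15. On the arrays without that pool the medians were -0.0094 (day 1 over day 0) and, for the array of day 0 over day 0.25, -0.0066. What these elements measure is unknown here.

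**Figure D3:**
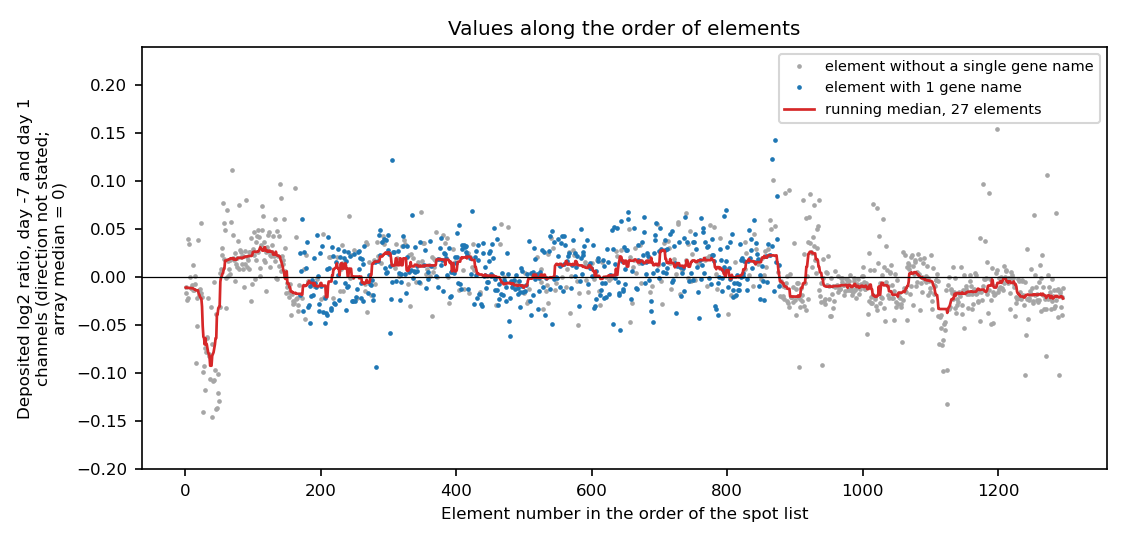
Deposited log2 ratio between the day -7 and day 1 channels (direction not stated, array median at 0) of the 1296 elements in the order of the spot list, with elements of 1 gene name in blue, the others in grey and the running median over 27 elements in red. The red line dips to -0.092 among elements 26 to 50 and lies mostly above 0 over the named elements and mostly below 0 after number 877.

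**Figure D4:**
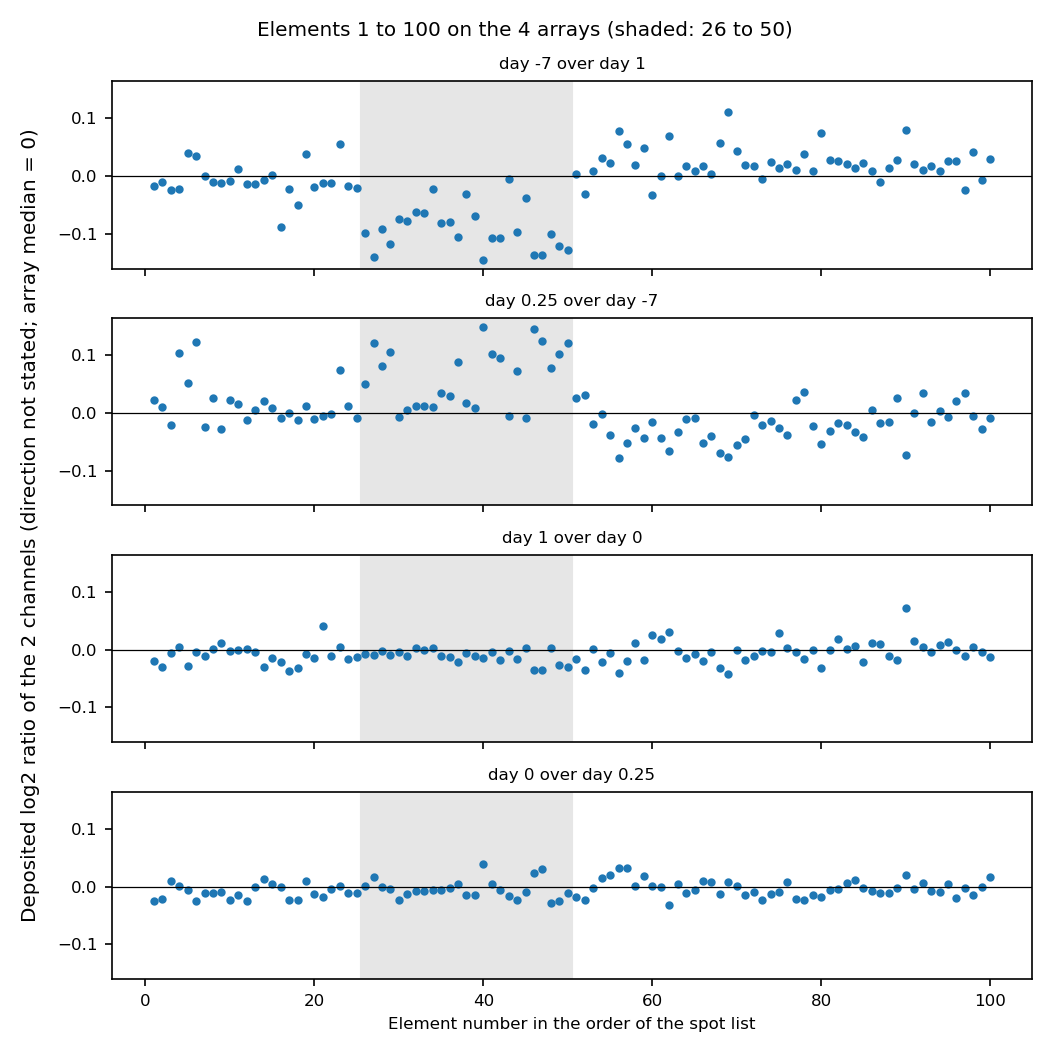
Deposited log2 ratio between the 2 channels (direction not stated, array median at 0) of elements 1 to 100 on each of the 4 arrays, with elements 26 to 50 shaded. The shaded run has a median of -0.097 on the array of day -7 over day 1, of 0.072 where the day -7 pool is in channel 2, and medians near 0 on both arrays without the day -7 pool.

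The same pools can also be compared without this array, because the other 3 arrays lead from day -7 through day 0.25 and day 0 to day 1. If every array is read as channel 1 over channel 2, which is not stated, the negative sum of their 3 values estimates the same difference. It had the same sign as the direct value for 122 of the 308 called elements (39.6%) and for 568 of 1295 elements in all (43.9%). Among genes the sign was the same for 32 of the 111 called ones (28.8%) and for 173 of 443 in all (39.1%). With the sign of 1, 2 or all 3 of the other arrays turned, the share among called elements ran from 35.1% to 64.9%, against 40.6% to 59.4% among all elements. The pools are the same on both routes, and 1 array's error enters the direct value against the errors of 3 in the other.

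Single genes show how far the routes lay apart. RANGAP1 stood at 0.14 on this array and at -0.065 on day 0.25 over day -7. Its values were 0.14 on day 1 over day 0 and, on the array of day 0 over day 0.25, 0.070, so RANGAP1 came to -0.14 by the longer route. It was thus positive on 3 arrays that had 3 different pools in channel 1. HCFC1 behaved alike, with 0.12 here, -0.082, 0.080 and 0.033 on the others in the same order, and -0.031 by the longer route. NFKB1 stood at -0.093 here, -0.083, -0.020 and 0.0052 on the others, and 0.098 by the longer route. UCP2 (-0.035 and 0.12), NOP53 (-0.040 and 0.12) and VDAC3 (0.065 and -0.075) had opposite signs as well. Some called genes kept their sign: TSSC4 stood at 0.061 here and 0.11 by the longer route, ADRM1 at 0.070 and 0.048, RELA at 0.033 and 0.090, NARF at 0.033 and 0.15, CPT2 at 0.036 and 0.20, PTK7 at 0.050 and 0.053, FIBP at -0.042 and -0.060, TMEM229B at -0.039 and -0.056, TRA2A at -0.039 and -0.044, TRAM1 at -0.040 and -0.036 and EPS15L1 at -0.046 and -0.032. These were singled out after both values were seen.

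**Figure D5:**
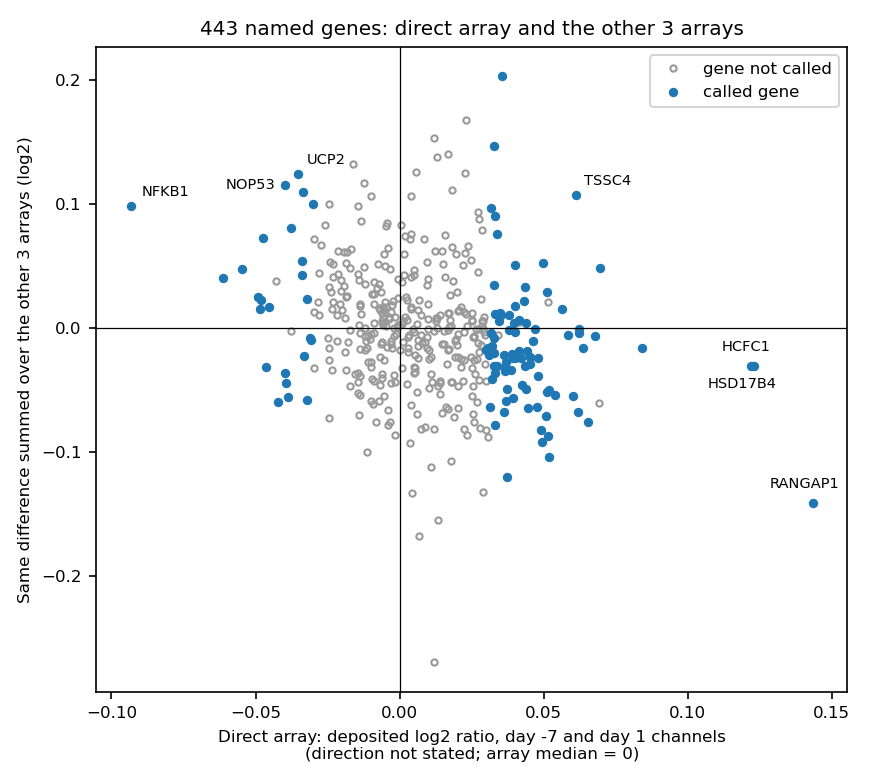
Each of 443 named genes by its deposited log2 ratio between the day -7 and day 1 channels on the direct array (horizontal, direction not stated, array median at 0) and by the same difference summed over the other 3 arrays, if all run the same way (vertical, log2), filled where called on the direct array. Called genes lie in all 4 quadrants, with 32 of 111 at the same sign on both axes, against 173 of all 443 genes. RANGAP1 lies at 0.14 and -0.14.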

How the data were processed

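The authors deposited 1 value per spot and array for 4 2-channel arrays, and no source used here states how background was corrected or values were normalised. Raised to base 10, 99.9% of the values of the array described lie on multiples of 0.0001 (tolerance 2% of the last decimal), against 3.63% when read as log2, so the deposited values are log10 ratios. The deposited column median was -0.000782. Values were multiplied by the log2 of 10 (3.32), averaged over 3 consecutive spots, which share 1 accession wherever the platform annotation gives one, and centred on the array's median element. Gene names come from that annotation, with 485 elements matched to the RefSeq table of ARS-UCD2.0 by gene ID and 1 by synonym. Analyses ran in Python 3.11.15 with pandas 2.3.3 and numpy 2.4.6, and figures in matplotlib 3.10.9. The code of the call rule was checked on simulated spots with the same noise for every element. The planted differences were all larger than the call size, so the check does not show how the rule fares on values near it.

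The named genes are the 15 highest and 15 lowest, all members of lists of up to 6 genes or the 5 largest of longer ones, and genes whose elements were all called or called both ways. Further genes were named after their values were seen. The array, rules and lists were chosen with earlier results of these data known, and 5 lists were added after the values were seen.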

Additional observations from a re-analysis of the deposited data

How the results depend on the processing

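The counts over all elements, over all genes and over the list genes together stayed within 1.5 times of those reported with the median of the 3 spots, without centring, with any 1 spot left out, with spots allowed on both sides and, for elements, without numbers 26 to 50. Counts of single lists moved further: kinases had 2 positive calls without spot 2 (5 as reported), fatty acid genes 3 positive and 1 negative without centring (5 and 0), and the NF-kB list no positive call without spot 3 (1). With the running median over 27 elements removed, 113 elements were called positive, and 47 genes were called positive and 43 negative. With the median named element at 0, an alternative added after the data were seen, the counts were 111 and 208 elements and 51 and 46 genes. A call size of 0.02 gave 548 elements (302 positive, 246 negative), 147 and 52 genes, and 74 genes of the lists. A call size of 0.05 gave 102 elements (58 positive, 44 negative), 22 and 3 genes, and 16 genes of the lists. For the trend along the element order, a window of 81 elements accounted for 16.3% of the variance of the elements. With the running median removed the medians of the NF-kB list (-0.0040) and the leukocyte surface list (-0.0025) turned negative. Of the 94 genes named by rule 52 were called, and no called one changed sign under these settings. From the other 3 arrays, with each read as channel 1 over channel 2, 34 called genes took the opposite sign: RANGAP1 (-0.14), PEX16 (-0.092), SUN2 (-0.078), VDAC3 (-0.075), MAN2B1 (-0.068), SBF1 (-0.067), SRSF7 (-0.056), CERS4 (-0.054), COG4 (-0.050), TBCA (-0.035), HCFC1 (-0.031), HSD17B4 (-0.030), BOLA-DRA (-0.024), ATP6V0D1 (-0.020), PACSIN2 (-0.016), METTL5 (-0.016), MAP4K2 (-0.014), PTPN2 (-0.0077), GCDH (-0.0059), ACP5 (-0.0052), RGMB (-0.0037), NDUFS7 (-0.0029), DCUN1D5 (-0.0016), CD2BP2 (-0.0010), PRRC2A (0.016), DAZAP2 (0.017), GAPDH (0.023), MIDN (0.025), NDUFAF3 (0.041), LAPTM5 (0.048), HNRNPDL (0.073), NFKB1 (0.098), NOP53 (0.12) and UCP2 (0.12). Opposite signs were also common over all genes, where 173 of 443 had the same sign by both routes. The cause was not tested.

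No paired analysis was possible because each comparison has 1 array. There are no replicate pools, so the number of arrays limits the precision, and the SD between spots leaves out the spread between cows. The direction of the ratio, the scale of the intensities behind it and the signal over background are not stated, and the calls are sizes with agreeing spots, not tests.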
